A study of Mus musculus with 8 samples.

Results

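The endosomal sorting complexes required for transport (ESCRT) and the annexins are the best known parts of the machinery that closes holes in the plasma membrane and in lysosomes. Here 38 genes of that machinery were examined in mouse melanoma cells that were incubated with magnetic micromotors and then given a high-frequency magnetic field. The members were taken by name: ESCRT-0, -I, -II and -III, the Vps4 ATPases, ALIX and its calcium-sensing partner ALG-2, 7 annexins, 2 S100 proteins that bind annexins, and dysferlin. All 38 had exactly 1 row among the 57353 rows of the expression table, and 37 passed the filter on low counts. Vps25 was the member that did not.

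RNA was sequenced from 8 libraries of B16-OVA cells, a line derived from the mouse melanoma B16F10 that expresses ovalbumin, with a genotype given as WT. The 4 HMF libraries came from cells co-incubated for 24 h with magnetic rod-shaped micromotors (MagRMs) and then given the high-frequency magnetic field, abbreviated HMF. The 4 Control libraries came from untreated cells, and all cells were collected 6 h after treatment. The treatment field of the labels reads the same for all 8 samples, and the groups were taken from the titles. No group had micromotors or field alone, so the parts of the 2 cannot be told apart. Separate cultures are not stated. The p-values set the difference between the groups against the scatter of these libraries, which may be only technical. The study asks how mechanical force leads to tumour cell death, and the comparison of HMF with Control is read here for genes that repair membranes.

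Total counts were 13973961 to 19295358 per library, and the 38 members together took 0.403% to 0.411% of the counts in HMF and 0.354% to 0.395% in Control. HMF 4 was the deepest library. Its chi-square per degree of freedom against the other HMF libraries was 16.2 to 31.9, where those 3 differed among themselves by 3.96 to 6.93. Control 1 and Control 2 likewise stood apart from Control 3 and Control 4 (15.7 to 18.8, against 8.55 and 2.20 within each of these pairs). All 7 melanocyte markers were detected, with a summed level of 12417 to 15226 CPM (depth-scaled counts) in HMF and 16432 to 18436 CPM in Control, and 4 of them fell. T and NK cell and keratinocyte markers had no count. The 5 macrophage markers summed to 14.2 to 15.4 CPM in HMF and 8.10 to 11.5 CPM in Control, with Adgre1 at 0 throughout. Most of that sum was Cd68, which averaged 13.8 CPM in HMF and 8.35 CPM in Control and was the only macrophage marker that rose. Lyz2 went the other way (log2 fold change of HMF over Control -0.47) and did not pass. Ptprc and Csf1r were below the count filter, so the sum is mainly a reading of Cd68. The 4 fibroblast markers summed to 8.08 to 12.1 CPM in HMF and 14.1 to 29.0 CPM in Control. The highest of them was Col1a2, which averaged 4.74 CPM in HMF and 13.6 CPM in Control and was the only one that fell. Col1a1 and Pdgfra were lower in HMF too but did not pass, and Dcn was below the count filter. The part of these markers in the results below was not tested, and in bulk RNA fewer cells of a type and less RNA per cell cannot be told apart.

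As background, calcium that enters through a torn membrane is sensed by annexins, which bind acidic phospholipids and one another within seconds, and by ALG-2, which brings in ALIX. ALIX and ESCRT-I in turn recruit ESCRT-III, whose CHMP subunits polymerise into filaments that pinch off the damaged patch. The Vps4 ATPase then takes the filament apart. The same complexes sort ubiquitinated receptors into multivesicular bodies, cut the midbody in cytokinesis and reseal the nuclear envelope, so their transcripts serve more than repair.

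Chmp4b, Chmp5, Anxa7, Anxa1, S100a10, Vps37c, Mvb12a, Pdcd6 and Stam2 rose in HMF and Mvb12b fell. These are 10 of the 37 tested members (27.0%), close to the 26.7% called among all 15082 genes, so the share is not a result about the members. By direction, 9 of the 37 members rose and 1 fell, where 13.7% of all genes rose and 13% fell. That split was not tested. Calls rest on edgeR's quasi-likelihood test with n = 4 per group, at p-values below 0.05 after Benjamini-Hochberg adjustment over all genes. Scaled by library size alone the members split into 8 rises and 3 falls, and all genes into 1743 rises and 2435 falls instead of 2073 and 1957. On the deposited FPKM values plus a pseudocount of 1 the members split into 8 and 2, and all genes into 1625 and 2311. These FPKM values are also scaled by library total, so they are not a separate check on the scaling. The TMM factors of the main analysis were 0.971 to 0.998 in HMF and 1.009 to 1.026 in Control, so the balance of rises and falls depends on this scaling. The single fall was lost without Control 3 or without Control 4, and there were 2 falls without HMF 1 or without HMF 4.

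The members' changes were small. No tested member reached a 2-fold difference, whereas 5.90% of all genes did, and the members' median absolute log2 fold change was 0.13 against 0.21 over all genes. Their median signed log2 fold change was 0.06, beside -0.02 over all genes. The members were not set against genes of like abundance, so the part of abundance in these gaps was not tested. The groups did not overlap for 12 of the 37 tested members (32.4%) and for 29.1% of all genes. The largest member changes were in Anxa7, Chmp4b, Anxa1, S100a10 and Chmp5, and these stood between 1.36-fold and 1.69-fold.

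**Figure D1:**
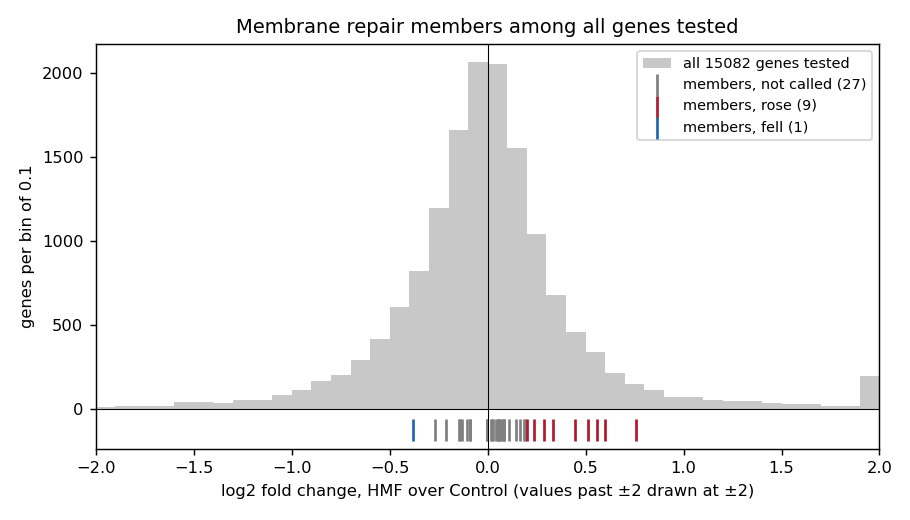
Log2 fold changes of HMF over Control. Grey bars count the 15082 tested genes per bin of 0.1, with values past 2 in either direction drawn in the end bins, and ticks under the axis are the 37 tested membrane repair members: 9 rose (red), 1 fell (blue) and 27 did not pass (grey). The members lie between -0.38 and 0.76, inside the broad centre of the distribution.

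Promoter sequences are shown for 3 members because 2 of them hold an element searched for and the third, Chmp4b, had the smallest adjusted p of the members and holds neither. RefSeq windows on GRCm38.p6 reaching from 250 bases before to 50 bases after an annotated start were found for 28 of the 38 members. The core of the interferon-stimulated response element, searched as GAAA, any 2 bases and GAAA, occurred on either strand in the windows of 2 members, Hgs and Pdcd6 (7.14% of 28), and in those of 3.99% of 27025 genes. The letters TCACGTGA, the core of the CLEAR element that TFEB binds in lysosomal genes, occurred in 1 member, Pdcd6ip (3.57%), and in 1.12% of genes. Of the 8 risen members with a window, 1 held the first element and none the second. The 250 bases before the start are given for each gene on its own strand, with the element in capitals. The first was read at chr2:154656776-154657025 (+ strand), the second at chr13:74317327-74317576 (- strand) and the third at chr9:113708260-113708509 (- strand).
Chmp4b: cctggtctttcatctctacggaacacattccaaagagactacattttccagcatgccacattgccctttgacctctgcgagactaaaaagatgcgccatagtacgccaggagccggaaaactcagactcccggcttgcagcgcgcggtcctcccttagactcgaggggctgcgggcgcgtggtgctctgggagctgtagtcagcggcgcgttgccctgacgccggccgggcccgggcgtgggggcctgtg
Pdcd6: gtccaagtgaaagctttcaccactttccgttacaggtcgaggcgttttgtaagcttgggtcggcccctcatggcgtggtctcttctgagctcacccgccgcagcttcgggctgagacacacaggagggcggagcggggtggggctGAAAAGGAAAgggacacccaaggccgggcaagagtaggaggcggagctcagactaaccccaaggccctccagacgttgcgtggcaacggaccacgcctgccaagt
Pdcd6ip: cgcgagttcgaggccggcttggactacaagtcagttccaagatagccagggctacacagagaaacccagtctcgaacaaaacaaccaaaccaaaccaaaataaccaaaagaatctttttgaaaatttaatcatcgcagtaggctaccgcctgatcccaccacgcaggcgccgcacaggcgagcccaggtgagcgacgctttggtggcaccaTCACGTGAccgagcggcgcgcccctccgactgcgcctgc

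The element in Pdcd6 begins 105 bases before the start and that in Pdcd6ip 39 bases before it. In Hgs the match GAAAAAGAAA begins at the sixth transcribed base. The 3 stretches are rich in CpG dinucleotides, with 21 in Chmp4b, 16 in Pdcd6 and 20 in Pdcd6ip, where the median over all windows was 6 and over the 33 member windows 15 in the same 250 bases.

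ESCRT-0 recognises ubiquitinated cargo on endosomes and starts the pathway. Of its 3 genes 1 rose and none fell (33.3% called, against 26.7% of all genes). Stam2, which encodes a ubiquitin-binding adaptor, had 103, 102, 101 and 116 CPM in the HMF libraries, against 91.1, 93.1, 91.4 and 91.6 CPM in the Control libraries. All 4 HMF values lay above all Control values, with HMF 4 highest. The log2 fold change was 0.20 ± 0.06 (SE, adjusted p = 0.0303), and without HMF 4 it was 0.15 and no longer passed (adjusted p = 0.0658). It also missed the threshold without HMF 2 or without Control 1, 3 or 4, with adjusted p-values of 0.0528 to 0.0735. Its paralog Stam ranged from 66.8 to 73.3 CPM in HMF and from 62.1 to 68.2 CPM in Control, with overlapping groups (0.11 ± 0.06, adjusted p = 0.219). Hgs, which encodes HRS, the subunit that binds cargo and phosphoinositide, averaged 85.2 ± 2.66 CPM in HMF and 82.2 ± 2.03 CPM in Control (SD, n = 4) and did not pass (log2 fold change 0.05 ± 0.05). In the GRCm38 annotation 97.2% of its exon bases are shared with a second identifier of the same name. The expression table holds 1 row of that name, with 1152 to 1644 counts in HMF and 1124 to 1443 counts in Control. Which annotation the counting used is not given, so any effect of this overlap on its level is uncertain.

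ESCRT-I bridges cargo recognition and ESCRT-III, and its 7 genes went both ways. There were 2 rises and 1 fall (42.9% called, against 26.7% of all genes). The variable MVB12 subunits moved in opposite directions. Mvb12a had 144, 141, 129 and 125 CPM in HMF and 107, 106, 115 and 113 CPM in Control. It rose by 0.29 ± 0.06 on the log2 scale (adjusted p = 0.00691), with HMF 4 the lowest of its group and still above Control 3. Mvb12b had 80.8, 72.6, 75.7 and 57.3 CPM in HMF and 83.8, 88.9, 97.8 and 102.7 CPM in Control. It fell by 0.38 ± 0.10 (adjusted p = 0.0194), and HMF 1 and Control 1 were close. The adjusted p of the fall was 0.0512 without Control 3 and 0.0607 without Control 4.

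Of the VPS37 genes of ESCRT-I only Vps37c passed. Vps37c had 36.5, 41.5, 34.7 and 41.0 CPM in HMF and 30.1, 30.2, 31.6 and 30.2 CPM in Control. The Control libraries were tightly grouped and all 4 HMF libraries were higher, giving a rise of 0.33 ± 0.08 (adjusted p = 0.00795). Vps37a, the form required for autophagosome closure in human cells, stood at 0.16 ± 0.07 on the same scale (adjusted p = 0.0938). Vps37b had -0.21 ± 0.10 (adjusted p = 0.125), but 42.5% of its exon bases in the GRCm38 annotation are overlapped by genes on the other strand, and the sources used here do not give the strand setting of the counting. The core genes Tsg101, which binds HRS and ALIX, and Vps28, which binds ESCRT-II, had -0.14 ± 0.06 (adjusted p = 0.109) and 0.06 ± 0.07. Tsg101 averaged 69.3 ± 3.92 CPM in HMF and 76.6 ± 2.74 CPM in Control (SD, n = 4). It passed as a fall when libraries were scaled by size alone (adjusted p = 0.0331) and without HMF 4 (adjusted p = 0.0439).

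ESCRT-II nucleates ESCRT-III on endosomes, and neither of its 2 tested genes passed. Vps36, the subunit that binds lipid and ubiquitin, averaged 86.5 ± 6.18 CPM in HMF and 84.0 ± 6.25 CPM in Control, and Snf8 averaged 58.4 ± 6.90 CPM in HMF and 58.6 ± 2.61 CPM in Control (SD, n = 4). Their log2 fold changes were 0.04 ± 0.07 and -0.0039 ± 0.08. Vps25 had 2, 5, 7 and 14 counts in the HMF libraries and 2, 3, 3 and 9 counts in the Control libraries. In the GRCm38 annotation 67.2% of its exon bases overlap Ramp2 on the same strand, so that reads of these genes may not be told apart. The part of that overlap in the low counts was not tested, and the level of Vps25 is uncertain.

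ESCRT-III forms the filament that cuts the membrane. Of its 11 genes 2 rose and none fell (18.2% called, against 26.7% of all genes). Chmp4b, which encodes the main filament subunit and is bound by ALIX, had 368, 398, 377 and 386 CPM in HMF and 246, 243, 252 and 268 CPM in Control. The 2 groups were far apart relative to their spread, and the gene rose 1.52-fold (log2 fold change 0.60 ± 0.06, adjusted p = 2.1e-05). Chmp5, whose product binds the Vps4 cofactor LIP5, had 75.1, 70.8, 76.3 and 75.8 CPM in HMF and 57.3, 51.4, 54.3 and 56.1 CPM in Control. No HMF library came near the Control range, and the gene rose 1.36-fold (0.44 ± 0.06, adjusted p = 2.54e-04).

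The other ESCRT-III genes did not pass. Chmp6, the subunit that links ESCRT-II to CHMP4, had 87.9, 85.5, 79.0 and 65.9 CPM in HMF and 88.1, 88.5, 103 and 104 CPM in Control. All HMF values were below all Control values, although HMF 1 and Control 1 nearly met, and the log2 fold change was -0.27 ± 0.10 (adjusted p = 0.0617). It passed as a fall without HMF 1, with no count filter and when scaled by library size alone. Chmp3, which acts with CHMP2 at the end of the filament, had -0.15 ± 0.07 (adjusted p = 0.149). Chmp2a (0.02), Chmp2b (0.08), Chmp1a (-0.0041), Ist1 (0.08) and Chmp7 (0.02), the last a nuclear envelope subunit, had log2 fold changes of small size, each with overlapping groups. Chmp1b had 0.14 ± 0.10, and 24% of its exon bases overlap a gene on the other strand. Chmp4c, which delays abscission in human cells, was nearly absent, with 11 to 22 counts in HMF and 6 to 27 counts in Control, and its log2 fold change of -0.09 ± 0.36 leaves its direction undetermined at this depth.

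The Vps4 ATPases, which recycle ESCRT-III, did not pass. Vps4a averaged 36.2 ± 0.69 CPM in HMF and 35.8 ± 2.58 CPM in Control, and Vps4b averaged 75.8 ± 4.30 CPM in HMF and 72.3 ± 1.95 CPM in Control (SD, n = 4). Their log2 fold changes were 0.02 ± 0.07 and 0.07 ± 0.06. Of the genes of ALG-2 and ALIX only that of ALG-2 passed. Pdcd6, the gene of the calcium sensor ALG-2, had 95.1, 93.5, 93.0 and 93.1 CPM in HMF and 78.7, 78.5, 80.4 and 79.8 CPM in Control. The spread was about 1% of the mean in both groups (coefficient of variation 1.03% in HMF and 1.17% in Control), the smallest in HMF among the tested members, and the rise was 0.24 ± 0.05 (adjusted p = 0.00444). Pdcd6ip, the gene of ALIX, had 201, 199.5, 201 and 207 CPM in HMF and 218, 223, 209 and 209 CPM in Control. Its groups did not overlap either, but the log2 fold change of -0.09 ± 0.05 did not pass (adjusted p = 0.244).

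**Figure D2:**
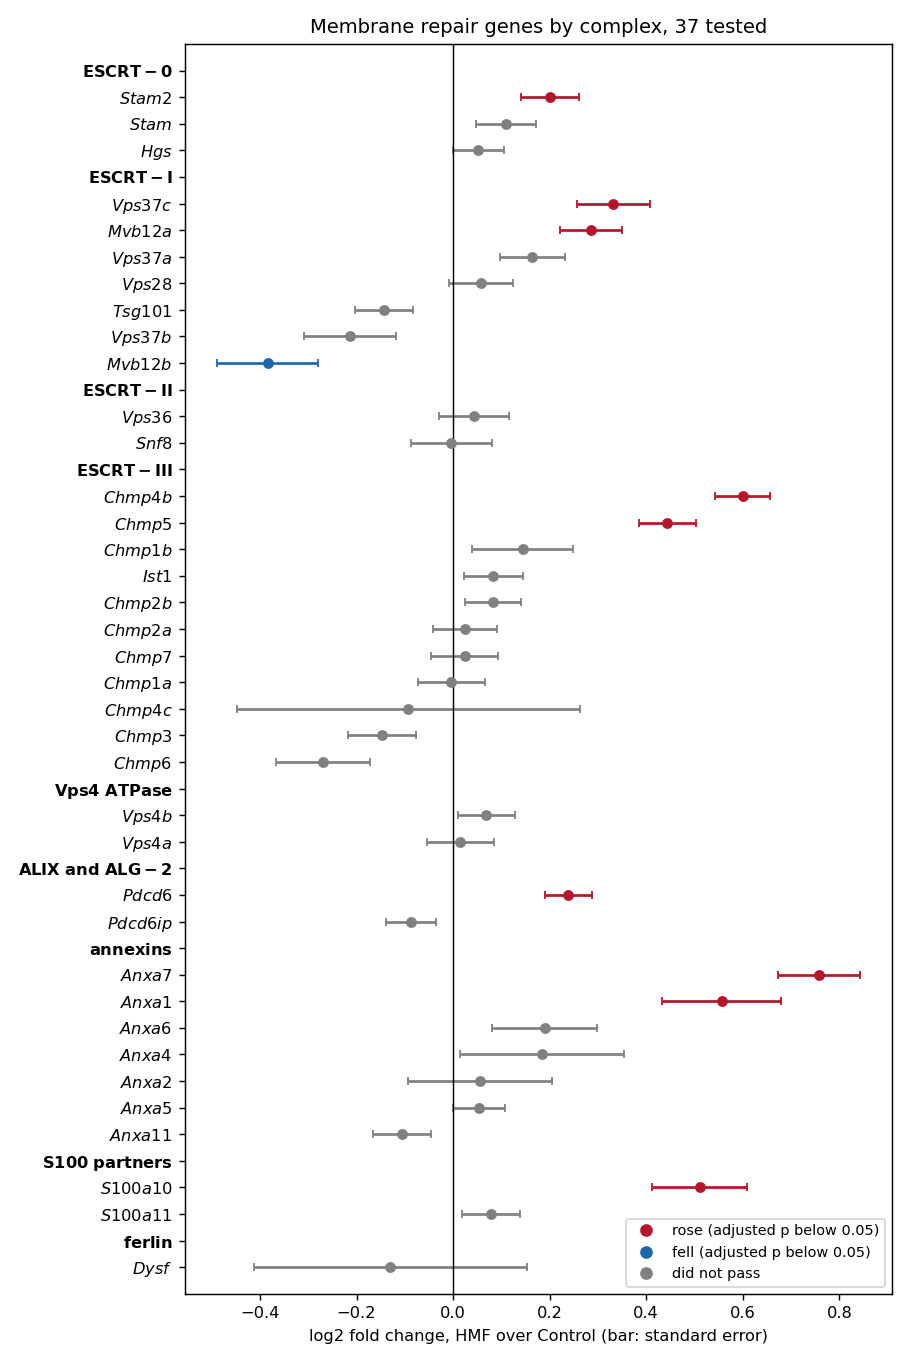
Log2 fold change of HMF over Control for the 37 tested members, grouped by complex, with bars of 1 standard error. Red points rose and the blue point fell at an adjusted p below 0.05; grey points did not pass. Rises stand in ESCRT-0, ESCRT-I, ESCRT-III, ALG-2, the annexins and S100a10, and the highest are Anxa7 at 0.76 and Chmp4b at 0.60.

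Among the 7 annexin genes 2 rose and none fell (28.6% called, against 26.7% of all genes). Anxa7, whose product acts with ALG-2 in plasma membrane repair in human cells, had 128, 136, 133 and 163 CPM in HMF and 90.3, 82.4, 81.8 and 76.1 CPM in Control. Every HMF library was above every Control library, and the gene rose 1.69-fold, the largest change of the members (0.76 ± 0.09, adjusted p = 7.59e-05). Anxa1, a calcium-dependent lipid-binding protein gene that also answers to glucocorticoids, had 346, 373, 334 and 468 CPM in HMF and 315, 253, 237 and 230 CPM in Control. Control 1 lay close under the lowest HMF library, and the rise was 0.56 ± 0.12 (adjusted p = 0.00684), or 0.44 without HMF 4.

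The other 5 annexins did not pass. Anxa5, which forms lattices on exposed phosphatidylserine, was steady, with 287 to 304 CPM in HMF and 271 to 292 CPM in Control (0.05 ± 0.05, adjusted p = 0.503). Anxa11 averaged 43.9 ± 1.70 CPM in HMF and 47.3 ± 1.51 CPM in Control (SD, n = 4; -0.11 ± 0.06). Anxa2, the partner of S100a10, varied widely within each group, with 457, 406, 417 and 313 CPM in HMF and 332, 303, 474 and 423 CPM in Control (0.06 ± 0.15, adjusted p = 0.818). HMF 4, Control 1 and Control 2 were its 3 lowest libraries. Anxa4 had 163, 128, 150 and 105 CPM in HMF and 106, 89.2, 153 and 132 CPM in Control, with the same 3 libraries lowest (0.18 ± 0.17). Anxa6 had 162, 170, 157 and 142 CPM in HMF and 111, 129, 159 and 155 CPM in Control (0.19 ± 0.11), and those 3 libraries were again the lowest of its 8.

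The S100 genes encode small calcium-binding proteins that join annexins into complexes. S100a10 had 112, 117, 107 and 143 CPM in HMF and 94.4, 76.3, 83.9 and 81.1 CPM in Control. The groups were separate, with HMF 4 highest, and the rise was 0.51 ± 0.10 (adjusted p = 0.00282). S100a11, a partner of annexins A1 and A2, averaged 86.1 ± 2.76 CPM in HMF and 81.5 ± 4.67 CPM in Control (SD, n = 4; 0.08 ± 0.06, adjusted p = 0.37). Dysf, the gene of dysferlin, a ferlin needed for repair of muscle membranes, was low, with 25 to 56 counts in HMF and 35 to 60 counts in Control (-0.13 ± 0.28).

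**Figure D3:**
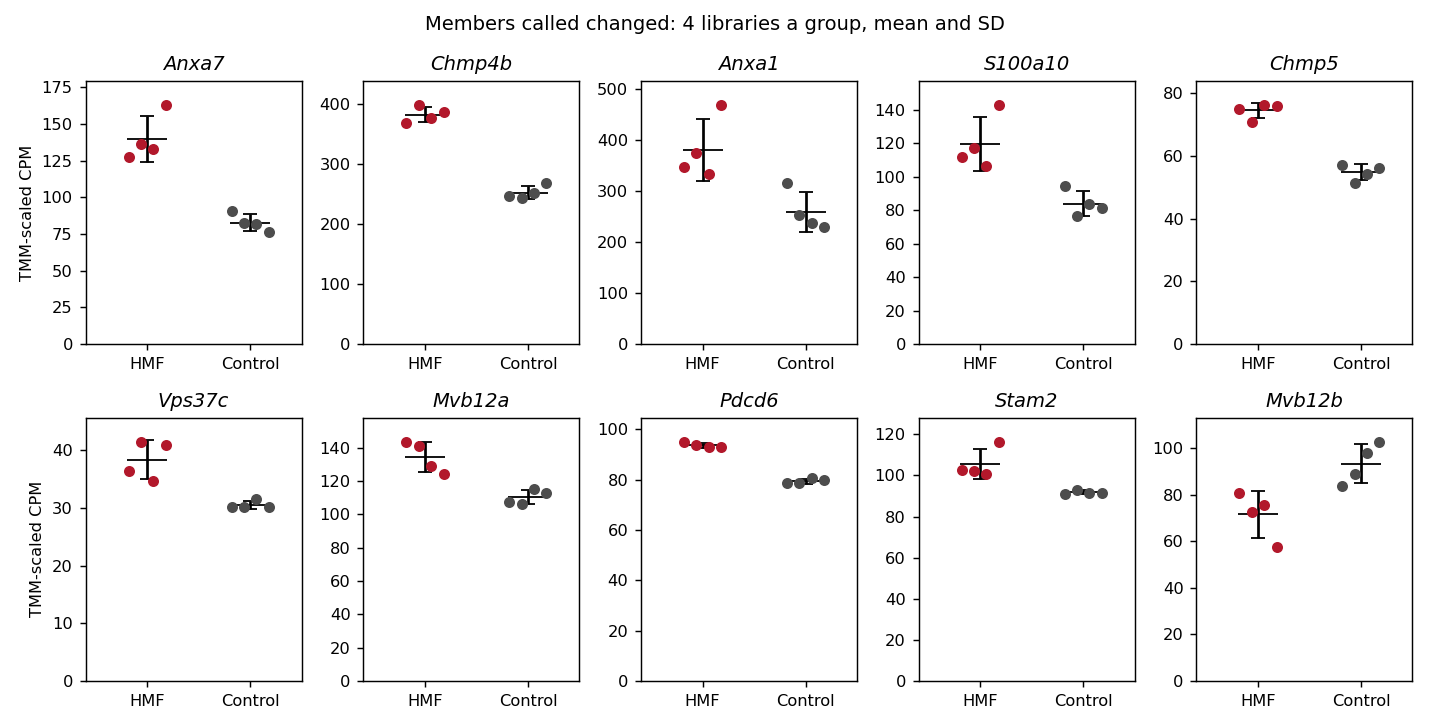
TMM-scaled CPM of the 10 members called changed, in each HMF library (red) and each Control library (grey), with the mean and SD of 4 libraries. HMF and Control do not overlap for any of the 10; Mvb12b is the panel where HMF is lower, and HMF 4 is the highest HMF library for Anxa7, Anxa1, S100a10 and Stam2 and the lowest for Mvb12a and Mvb12b.

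Libraries of a group differed widely in several annexins. The coefficient of variation between libraries had a median over the 37 members of 6.95% in HMF and 5.36% in Control. It was 18.6% in HMF and 23.5% in Control for Anxa4, and 15.3% in HMF and 20.8% in Control for Anxa2. Only the scarce Chmp4c (25.6% in HMF and 46.4% in Control) and, in HMF, Dysf (40.0%) exceeded Anxa4. HMF 4 was the highest HMF library for 13 members, the lowest for 11 and in between for 13. Any library is highest or lowest for some members, so these counts alone do not set HMF 4 apart. On the log2 scale relative to the Control mean, Anxa1 stood at 0.86 in HMF 4 and at 0.37 to 0.53 in the other HMF libraries. Anxa2 stood at -0.29 in HMF 4 and at 0.09 to 0.25 in the others. Mvb12b stood at -0.70 in HMF 4 and at -0.36 to -0.21 in the others. Without HMF 4 the members numbered 8 rises and 2 falls, and all rises but that of Stam2 were kept.

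**Figure D4:**
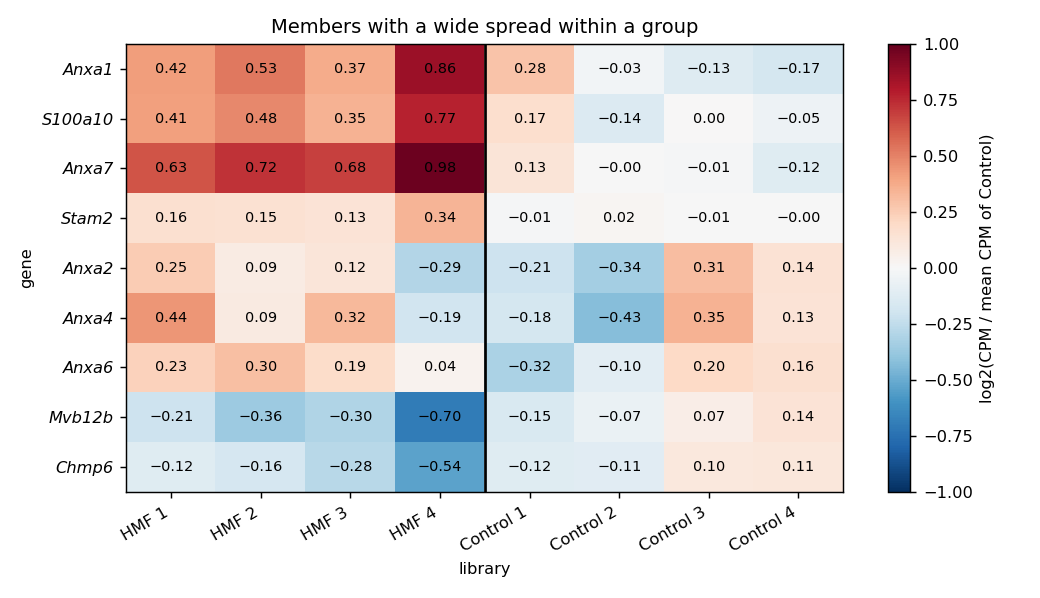
Log2 of the CPM in each library over the mean CPM of the 4 Control libraries, for 9 members with differences between libraries of a group. Anxa1, S100a10, Anxa7 and Stam2 are highest in HMF 4, at 0.34 to 0.98, and Anxa2 and Anxa4 are below 0 in HMF 4, Control 1 and Control 2 and above 0 in the other 5 libraries.

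Ratios of paired members were compared within libraries, where scaling has no part. Of 11 pairs of paralogs or partners none passed after adjustment, and 4 had the smallest p that 4 against 4 libraries allow (exact permutation test, two-sided, p = 0.0286; adjusted p = 0.0786 over the 11 pairs). With 4 libraries a group a single pair could not pass after this adjustment, whatever the size of its difference. The log2 ratio of Mvb12b to Mvb12a was -0.92 ± 0.15 in HMF and -0.25 ± 0.09 in Control (SD, n = 4). That of Pdcd6 to Pdcd6ip was -1.11 ± 0.03 in HMF and -1.44 ± 0.06 in Control. The ratio of S100a11 to Anxa1 was -2.13 ± 0.19 in HMF and -1.66 ± 0.14 in Control, and that of Vps37b to Vps37a was -2.08 ± 0.08 in HMF and -1.70 ± 0.15 in Control. In these 4 pairs the libraries of the groups did not overlap. The ratio of Vps37c to Vps37a was -0.68 ± 0.21 in HMF and -0.85 ± 0.05 in Control. Its groups overlapped (exact permutation test, two-sided, p = 0.286, adjusted p = 0.349). The ratio of S100a10 to its partner Anxa2 was -1.73 ± 0.41 in HMF and -2.17 ± 0.32 in Control, with overlap (exact permutation test, two-sided, p = 0.171, adjusted p = 0.314). Its difference of 0.44 was 0.24 without HMF 4.

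Levels between members can be set side by side only per length, for which the deposited FPKM values were used. S100a11 (166 ± 4.35 FPKM in HMF, 162 ± 9.19 FPKM in Control) and Anxa5 (162 ± 3.42 FPKM in HMF, 161 ± 6.64 FPKM in Control) did not differ beyond their spread (SD, n = 4). Chmp4b had 185 ± 5.17 FPKM in HMF and 126 ± 6.03 FPKM in Control, so that it stood above both in HMF and below both in Control. Anxa1 (128 ± 19 FPKM in HMF, 90.1 ± 13 FPKM in Control), Anxa2 (105 ± 17 FPKM in HMF, 104 ± 22.4 FPKM in Control) and S100a10 (96.8 ± 11.9 FPKM in HMF, 70.2 ± 6.37 FPKM in Control) came next. Within each group the range of mean ± SD of Anxa2 overlapped that of Anxa1, and their difference within libraries was not tested. Within ESCRT-III Chmp4b stood well above the next gene, Chmp2a, at 67.4 ± 3.33 FPKM in HMF and 68.4 ± 3.95 FPKM in Control. The least abundant were Dysf (0.312 FPKM in HMF, 0.349 FPKM in Control), Vps25 (0.257 FPKM in HMF, 0.158 FPKM in Control) and Chmp4c (0.0994 FPKM in HMF, 0.109 FPKM in Control).

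A wider list of 46 genes of the same processes was counted beside the members. It was drawn up with earlier results of these data known. Of these 45 had a row, 37 passed the count filter, and 11 rose and 6 fell (45.9%, against 26.7% of all genes), with a median log2 fold change of 0.06. Vamp7 was not analysed here. Anxa3, Anxa8, Anxa10, Anxa13, S100a4, Fer1l6, Trim72 and Lgals3 were below the filter.

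The 8 genes of that list with the smallest adjusted p included sensors of damaged lysosomes. Lgals9 and Lgals8 encode galectins that bind sugars exposed inside broken lysosomes. Lgals9 averaged 775 ± 19.9 CPM in HMF and 347 ± 9.82 CPM in Control, a log2 rise of 1.16 ± 0.05 (adjusted p = 7.61e-08). Lgals8 averaged 281 ± 7.77 CPM in HMF and 190.0 ± 8.97 CPM in Control (SD, n = 4), for a log2 rise of 0.56 ± 0.06 (adjusted p = 3.24e-05). Pi4k2a, the gene of a lipid kinase that marks damaged lysosomes for repair in human cells, rose by 0.55 ± 0.06 (adjusted p = 7.85e-05). Of the 7 tested genes in that group 3 rose and none fell (42.9% called, against 26.7% of all genes). Trim16 (0.50 ± 0.28), Lrrk2 (0.04 ± 0.09), Tecpr1 (-0.21 ± 0.12) and Atg16l1 (0.17 ± 0.06) did not pass. The galectin gene Lgals3 was below the filter, with 4 to 25 counts in HMF and 2 to 8 counts in Control.

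Genes of vesicle fusion and remodelling rose in part. Syt7, which encodes a calcium sensor of lysosome exocytosis, averaged 27.0 ± 6.17 CPM in HMF and 8.94 ± 1.45 CPM in Control (SD, n = 4), a rise of 1.60 ± 0.17 (adjusted p = 4.29e-05). Ehd4, which encodes a membrane-remodelling ATPase, rose by 0.75 ± 0.09 (adjusted p = 1.53e-04). In that group of 14 tested genes 4 rose and 4 fell (57.1% called, against 26.7% of all genes). The falls were the calpain genes Capn2 and Capns1, the acid ceramidase gene Asah1 and the ferlin gene Otof. Otof was a scarce transcript (0.426 ± 0.221 CPM in HMF and 1.02 ± 0.266 CPM in Control). The acid sphingomyelinase gene Smpd1 (-0.24 ± 0.21) and the ferlin gene Myof (0.29 ± 0.20) did not pass.

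Among 12 further ESCRT genes 3 rose and 2 fell (41.7% called, against 26.7% of all genes). Mitd1 and Cep55, which both act with ESCRT-III at the midbody, went opposite ways. Cep55, the scaffold that recruits ALIX and TSG101 to the midbody, averaged 16.5 ± 4.26 CPM in HMF and 49.5 ± 12.5 CPM in Control (SD, n = 4) and fell by 1.57 ± 0.20 (adjusted p = 1.77e-04). Mitd1 averaged 95.1 ± 10.1 CPM in HMF and 56.6 ± 7.89 CPM in Control and rose by 0.75 ± 0.10 (adjusted p = 3.38e-04). Uevld, which encodes a relative of TSG101, fell by 0.71 ± 0.11 (adjusted p = 5.61e-04). Ubap1, an alternative ESCRT-I subunit gene, rose by 0.33 ± 0.07, and Stambp, which encodes a deubiquitinase bound to ESCRT, by 0.22 ± 0.07. Of 4 tested genes among further annexins, S100 genes and Ahnak, only Ahnak passed (25% called, against 26.7% of all genes). Ahnak encodes a giant scaffold bound by the Anxa2 complex and rose by 0.38 ± 0.08.

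**Figure D5:**
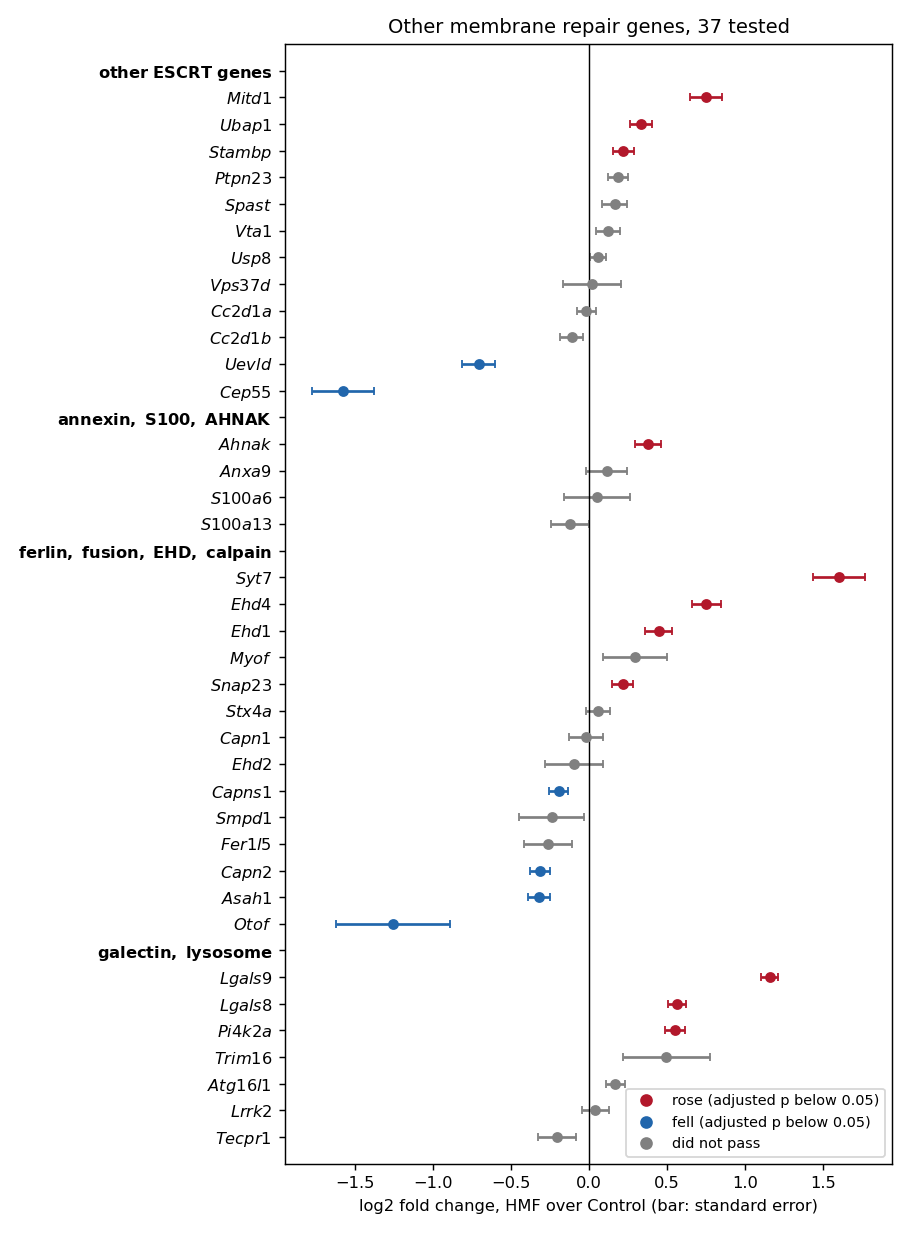
Log2 fold change of HMF over Control for the 37 tested genes of the wider membrane repair list, grouped by process, with bars of 1 standard error. Red points rose (11) and blue points fell (6) at an adjusted p below 0.05; Syt7 at 1.60 and Lgals9 at 1.16 are the highest and Cep55 at -1.57 the lowest.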

How the data were processed

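Trimmomatic, HISAT2 2.0.5, HTSeq, DESeq2 and the build mm10 are named, without roles, per the submitters' processing notes. For the annotation and the strand setting, the entry is not given in the sources used here. Per the labels' protocols, polyadenylated RNA was captured from Trizol extracts. The authors deposited raw counts for each gene. Their deposited FPKM values equal the count over the library total and 1 fixed length per gene (largest coefficient of variation of that length 3.7e-13%, 10977 genes checked).

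Groups and replicate numbers came from the sample titles. Counts were scaled by TMM, filtered with filterByExpr (default minimum count of 10), and 15082 genes were tested with edgeR 4.0.16 (quasi-likelihood, R 4.3.3), with no covariate beside the group. Benjamini-Hochberg adjustment ran over all of these genes, and a gene was called at an adjusted p below 0.05. CPM is computed on the TMM-scaled library size, and each standard error was derived from the fold change and its F statistic. The fit was also run on simulated counts with far fewer changed genes than were called here. They were drawn gene by gene, so that run does not vouch for these calls. Alternatives used DESeq2 1.42.0 and limma 3.58.1. The members, the wider list, the pairs and the promoter motifs were chosen with earlier results of these data known. All 38 members are named, and of the wider list the 8 with the smallest adjusted p, beside others named after their values were seen. The 11 ratios of paired members took 1 count as pseudocount and used an exact permutation test (scipy 1.17.1). Exon overlap came from GENCODE M21 (GRCm38) by gene identifier, and promoter windows from RefSeq (GRCm38.p6) by symbol. No positions of the deposited table are printed. Figures were drawn with matplotlib 3.10.9.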

Additional observations from a re-analysis of the deposited data

Results flagged for a closer look

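Dixon's test of the highest and lowest library, at its 95% critical value, was run on 100 sets of 4 libraries: the tested members, the paired ratios, the total count and the members' share of the counts, in HMF and in Control. It set apart 6, where chance sets apart about 1 in 20. In HMF, library 4 was highest for Stam2 (116 CPM, against 101 to 103 CPM in the others) and for Tsg101 (75.1 CPM, against 66.7 to 67.7 CPM). Its total count was also highest, at 19295358 against 14159514 to 14945878. The log2 ratio of Chmp1b to Chmp1a was lowest in HMF 2 (-2.84, against -2.61 to -2.57). In Control, library 3 was highest for Vps37c (31.6 CPM, against 30.1 to 30.2 CPM) and for Snf8 (62.4 CPM, against 56.9 to 57.7 CPM).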

How the results depend on the processing

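The rises of Vps37c, Mvb12a, Chmp4b, Chmp5, Pdcd6, Anxa1, Anxa7 and S100a10 passed in all 18 alternatives and at an adjusted p below 0.01. Their rises in these 18 alternatives were lowest for Pdcd6 (0.19). Stam2 passed in 8 of 18, Mvb12b in 15, Tsg101 in 4 and Chmp6 in 3. The members numbered 10 called in the main analysis and 8 to 11 in the alternatives. The count of falls, 1, was 0 at an adjusted p below 0.01 and with the replicate number as a block, 2 with no count filter and on log2 FPKM plus 1 or plus 0.1, and 3 with library size alone. Leaving out 1 library at a time it was 0 to 2. At an adjusted p below 0.01 all genes numbered 2288, with 1239 rises and 1049 falls. Of the unchanged counts, DESeq2 and limma-voom each gave 9 rises and 1 fall among the members.

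Same-numbered libraries did not deviate together (correlation of deviations from the group means -0.319 to 0.225), and 1 of the 4 Control libraries correlated best with its own number. Across numbers, over all genes, HMF 4 correlated with Control 1 at 0.363 and Control 2 at 0.247. With Control 3 it stood at -0.358 and with Control 4 at -0.319. Whether a shared number marks a shared culture or day is not stated, and so few libraries cannot decide it. With the replicate block 8 members rose and none fell, and all genes numbered 1463 rises and 1322 falls. Mvb12b then had an adjusted p of 0.0669. With 3 libraries against 4 the permutation test of ratios cannot reach the threshold, so only their differences were recomputed. They kept their signs in all 11 pairs, but their sizes moved unequally. The 4 pairs without overlap ranged from -0.72 to -0.61 (Mvb12b to Mvb12a), -0.54 to -0.38 (S100a11 to Anxa1), -0.44 to -0.33 (Vps37b to Vps37a) and 0.30 to 0.35 (Pdcd6 to Pdcd6ip). S100a10 to Anxa2 ranged from 0.24 to 0.56 and Chmp2b to Chmp2a from 0.0079 to 0.11. Low counts limit the precision for Chmp4c and Dysf.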
